A study of Mus musculus with 9 samples.

Results

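The genes described here code for the subunits of integrins and laminins: 18 integrin alpha genes, 9 integrin beta genes and 11 laminin chain genes, 38 of the 55401 genes in the count table. They were taken by gene symbol and protein-coding type, leaving out Itgbl1 and the integrin binding proteins whose names contain bp. No measured value entered that rule, but earlier results of these data were known when it was set. Of the 38 genes, 37 passed the filter on low counts and were among the 16762 genes tested. The one left out was Itgb2l, a gene close in sequence to Itgb2, with 1 count over all 9 libraries.

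Laminins are secreted trimers of an alpha, a beta and a gamma chain that build the basement membrane around each cardiomyocyte and blood vessel. Integrins are membrane pairs of an alpha and a beta subunit that bind laminin, collagen, fibronectin and other matrix proteins outside the cell and connect, through talin and kindlin, to the actin cytoskeleton. In heart muscle the pair encoded by Itga7 and Itgb1 is a main laminin receptor of the lateral membrane, and loss of the laminin chain encoded by Lama2 causes a congenital muscular dystrophy.

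RNA was sequenced from primary ventricular myocytes (NMVMs) of wild-type C57BL/6J mouse pups aged 1 day, in 3 groups of 3 libraries. Control cells stayed in normoxia in complete medium with 10% FBS, whereas hypoxia cells were moved to DMEM lacking glucose and serum and sealed for 6 h in a chamber that removes oxygen. The hypoxia + rSRGN cells were handled as the hypoxia cells with recombinant serglycin, a proteoglycan core protein, in the medium, at a dose the labels do not give. The libraries held 22472430, 22781557 and 21669017 counts in control, 18148474, 17434604 and 16583985 in hypoxia, and 16640239, 20826701 and 18772474 in hypoxia + rSRGN. Low oxygen and the removal of glucose and of serum came together, so their parts in any difference from control cannot be told apart. The labels do not say whether the cultures of a group came from separate isolations, so the p-values measure the spread between these libraries, which may be technical.

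Levels are given as TMM-scaled CPM, counts scaled to library size, and levels of different genes are compared only after division by the kilobases of exon (CPM per kb). A gene was called when edgeR's quasi-likelihood test gave a Benjamini-Hochberg adjusted p under 0.05 over all genes tested and the fold was at least 1.5. The SE beside a log2 fold change comes from the same fit. Between replicates, the spread of counts was wider than sampling noise in every pair, with a chi-square per degree of freedom of 3.74 to 14.2, and all 9 libraries were kept as separate samples.

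The labelled cell type was present in all groups, at unequal marker levels. The 13 cardiomyocyte markers summed to 46609, 54216 and 57124 CPM in control, 6303, 5912 and 4043 in hypoxia and 8602, 7999.8 and 8003 in hypoxia + rSRGN. Per kb, Actc1 was the most abundant of them in control and hypoxia and Nppa in hypoxia + rSRGN, no marker was at 0, all 13 were called lower in hypoxia, and 10 of 13 were called higher in hypoxia + rSRGN than in hypoxia. In bulk RNA, fewer cells of a type and less RNA per cell cannot be told apart. The 10 fibroblast markers, led by Col1a1, summed to 8379, 9676 and 9963 CPM in control, 19259.7, 16336 and 18427 in hypoxia and 18175, 18756 and 18399 in hypoxia + rSRGN, and 7 of 10 were called higher in hypoxia than in control, with 1, Tcf21, called lower in hypoxia + rSRGN than in hypoxia. Of 6 epicardial markers, with Upk1b the most abundant per kb in each group, 6 were called higher in hypoxia, and their sum was 255, 235 and 227 CPM in control, 856, 909 and 931 in hypoxia and 869, 791 and 874 in hypoxia + rSRGN. None of the 6 was called with rSRGN by edgeR or DESeq2, and 0 had an unadjusted p under 0.05. The part that any of these shifts plays in the integrin and laminin values was not tested.

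Endothelial markers (10 genes, per kb Cdh5 the most abundant in control and Tek in the other groups) summed to 83.2, 104 and 115 CPM in control, 75.5, 59.6 and 63.5 in hypoxia and 72.1, 72.7 and 60.0 in hypoxia + rSRGN, with 7 of 10 called lower in hypoxia and 1, Kdr, called higher in hypoxia + rSRGN than in hypoxia. The 9 mural markers, led by Acta2, summed to 1732, 1928 and 2049 CPM in control, 2434, 2742 and 2631 in hypoxia and 2306, 2433 and 2418 in hypoxia + rSRGN, and 2 were called higher and 1 lower in hypoxia, with 1, Rgs5, called higher with rSRGN. Acta2 is also expressed by fibroblasts in culture.

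Within the 38 genes, levels in control ran over several orders of magnitude. Itgb1, whose product pairs with the most alpha subunits, was highest at 323 ± 19.8 CPM per kb (mean ± SD, n = 3), followed by Itgb5 at 102 ± 1.49. The laminin genes Lamb2 (77.2 ± 9.52 CPM per kb) and Lamc1 (71.3 ± 5.28 CPM per kb) came next, and these neighbours overlapped within their SD. Lamb1 (38.5 ± 1.78 CPM per kb) and the fibronectin receptor gene Itga5 (29.5 ± 1.93 CPM per kb) followed. Lama5, Itga7 and Itgav, at 22.5 ± 3.54, 21.6 ± 2.59 and 21.2 ± 1.10 CPM per kb, did not differ beyond their spread. Over all 9 libraries, 11 of the 38 genes averaged 100 CPM or more, 10 lay between 10 and 100 CPM, 10 between 1 and 10 CPM, and 7 under 1 CPM. Those 7 were all genes of the leukocyte integrin group.

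In hypoxia against control, which asks what oxygen, glucose and serum deprivation changed, the laminin genes called were all lower and integrin genes were called in both directions. Lama2, Lamb2, Itgb6 and Itga9 fell, Itgb8 and Itgb4 rose, and the abundant Itgb1, Itga5, Itgav and Lama4 were not called. Of the 37 genes tested, 21 were called (56.8%), beside 51.6% of all genes tested. By direction, 6 were called higher, beside 26.4% of all genes, and 15 lower, beside 25.1%. The median log2 fold change over the 37 was -0.31, against 0.05 over all genes tested. DESeq2 called 21 as well, the same genes. No test was made of the genes as a group. Without the leukocyte integrins, 14 of 30 genes were called (46.7%), below the share over all genes. Most leukocyte integrins passed the filter on low counts only through the libraries where they were high, which largely set the direction of their calls.

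Adding rSRGN to hypoxic cells raised 3 of the 37 genes past both limits, Lama2, Itgav and Itga8, which is 8.11% beside 3.13% of all genes tested and 2.27% called higher. Called lower were 0 by edgeR, beside 0.859% of all genes, and 0 by DESeq2, and 1 had an unadjusted p under 0.05 in that direction. The median log2 fold change of the 37 genes was 0.37, against -0.03 over all genes tested, and 31 of 37 values were above 0. With no limit on the fold, 14 of the 37 genes had an adjusted p under 0.05, all of them higher, whereas 16.6% of all genes tested passed that limit in either direction. The count of 3 rested in part on single libraries. It was 1 (Lama2) without hypoxia replicate 3, beside 1.89% of all genes. Without hypoxia + rSRGN replicate 3 it was 5, beside 3.46%. Both comparisons use the same hypoxia libraries, so opposite signs in them are not independent, and the values of all groups are given side by side for each gene.

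**Figure D1:**
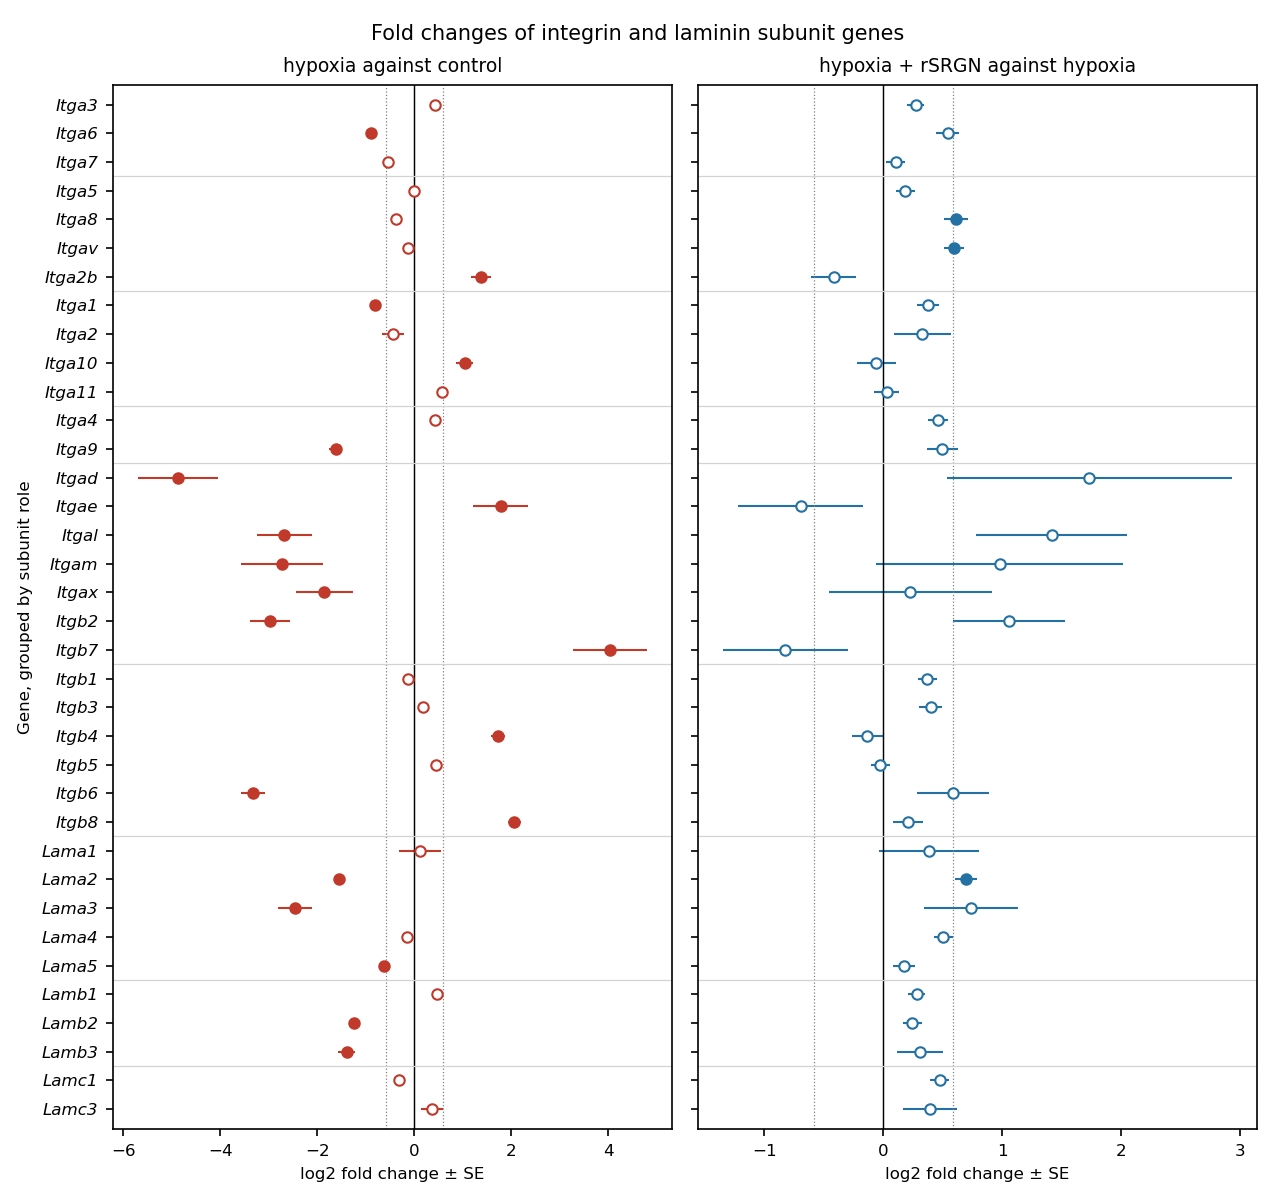
Log2 fold change with its standard error (x axis) of tested integrin and laminin genes (y axis, grouped by role) in hypoxia against control and in hypoxia + rSRGN against hypoxia. Filled points were called, dotted lines mark the 1.5-fold limit, and the x axes differ in range, with 3 genes filled on the right.

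Among laminin alpha chains, Lama2 (chr10:26980036-27619758, minus strand of mm10), the alpha chain of muscle laminin, changed the most clearly. It was counted at 124, 134 and 156 CPM in control, 50.2, 48.7 and 41.8 in hypoxia and 80.3, 77.4 and 70.3 in hypoxia + rSRGN. The groups did not overlap: control was highest, hypoxia lowest and hypoxia + rSRGN between them in every library. Lama2 fell in hypoxia by 2.94-fold (log2 fold change -1.55 ± 0.09 (SE), edgeR adjusted p = 1.15e-12) and rose with rSRGN by 1.62-fold (log2 fold change 0.69 ± 0.09 (SE), edgeR adjusted p = 6.71e-05). It was called in both comparisons under every alternative setting and with any library left out. Even so, Lama2 in hypoxia + rSRGN was called lower than in control (log2 fold change -0.86 ± 0.09 (SE), edgeR adjusted p = 1.80e-08).

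Lama4, an alpha chain of vessel and muscle basement membranes, was at 206, 201 and 234 CPM in control, 207, 184 and 183 in hypoxia and 266, 299 and 249.6 in hypoxia + rSRGN. Control and hypoxia overlapped, and all hypoxia + rSRGN libraries lay above both. Neither comparison was called (log2 fold change -0.16 ± 0.08 (SE), edgeR adjusted p = 0.0877 for hypoxia against control; log2 fold change 0.51 ± 0.08 (SE), edgeR adjusted p = 0.000357 with rSRGN, under the 1.5-fold limit). Lama5, the broadly expressed alpha chain, was counted at 213, 293 and 261 CPM in control, 178, 153 and 165 in hypoxia and 183, 189.5 and 187 in hypoxia + rSRGN. Every control library was above every hypoxia library, and control replicate 1 was the lowest of its group. Lama5 was called lower in hypoxia (log2 fold change -0.63 ± 0.09 (SE), edgeR adjusted p = 2.16e-06), a call that ended without control replicate 2 (-0.53), without hypoxia replicate 2 (-0.58) and with library size alone as the scaling (-0.56). With rSRGN its values lay just above the hypoxia ones (log2 fold change 0.18 ± 0.09 (SE), edgeR adjusted p = 0.207).

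Lama3 and Lamb3 encode chains of laminins that anchor epithelia such as skin, and both fell in hypoxia. Lama3 had 5.12, 3.97 and 4.54 CPM in control, 1.40, 0.462 and 0.579 in hypoxia and 1.97, 1.20 and 1.00 in hypoxia + rSRGN. Its control libraries were all above the others, and hypoxia replicate 1 was the highest of its group (log2 fold change -2.46 ± 0.36 (SE), edgeR adjusted p = 2.18e-06). For Lamb3 the values were 10.9, 11.9 and 13.2 CPM in control, 4.94, 3.24 and 5.50 in hypoxia and 6.55, 4.82 and 5.65 in hypoxia + rSRGN. Here too control stood above both deprived groups without overlap (log2 fold change -1.39 ± 0.18 (SE), edgeR adjusted p = 4.84e-07). Per kb, Lamb3 in control stood at 1.82 ± 0.179 CPM per kb and Lama3 at 0.423 ± 0.0535. Neither was called with rSRGN by edgeR or DESeq2, with log2 fold changes of 0.74 ± 0.40 for Lama3 and 0.31 ± 0.19 for Lamb3 (SE), and without hypoxia replicate 1 Lama3 was called higher (1.39).

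Of the beta chains, Lamb2 fell and Lamb1 did not. Lamb2, the beta chain enriched at neuromuscular junctions and in vessel walls, was at 404, 512 and 493 CPM in control, 209.6, 186 and 196 in hypoxia and 226, 236 and 239 in hypoxia + rSRGN. Each control library held more than each deprived one, and Lamb2 fell by 2.38-fold in hypoxia (log2 fold change -1.25 ± 0.08 (SE), edgeR adjusted p = 9.04e-12). Lamb1, the beta chain of early and most other basement membranes, was at 362, 396 and 387 CPM in control, 546, 529.7 and 506 in hypoxia and 634, 656 and 632 in hypoxia + rSRGN. All 3 groups were separate, in the order control, hypoxia, hypoxia + rSRGN. The difference of Lamb1 between hypoxia and control did not reach 1.5-fold (log2 fold change 0.47 ± 0.07 (SE), edgeR adjusted p = 2.92e-06), nor did that between hypoxia + rSRGN and hypoxia (log2 fold change 0.28 ± 0.07 (SE), edgeR adjusted p = 0.00737), whereas the whole step from control to hypoxia + rSRGN did (log2 fold change 0.75 ± 0.07 (SE), edgeR adjusted p = 2.46e-09). Adding rSRGN left Lamb2 under the fold limit (log2 fold change 0.25 ± 0.08 (SE), edgeR adjusted p = 0.0452).

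Lamc1, the gamma chain shared by most laminins, was counted at 543, 597 and 629 CPM in control, 503, 501 and 428 in hypoxia and 643, 718 and 628 in hypoxia + rSRGN. Its hypoxia libraries lay below all others, while control and hypoxia + rSRGN overlapped. Neither the lower level in hypoxia (log2 fold change -0.31 ± 0.08 (SE), edgeR adjusted p = 0.00220) nor the higher level with rSRGN (log2 fold change 0.48 ± 0.08 (SE), edgeR adjusted p = 0.000557) reached 1.5-fold. The low-level chains Lama1, found in embryonic basement membranes, and Lamc3 had group means of 1.14 to 1.59 CPM and 2.53 to 4.28 CPM. Neither was called against control in hypoxia, and Lamc3 was called higher in hypoxia + rSRGN than in control (log2 fold change 0.76 ± 0.23 (SE), edgeR adjusted p = 0.00562).

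Expressed as shares of the summed level per kb, described here without a test, the laminin beta chains exchanged their order. Lamb2 made up 65.6% ± 1.82 (SD, n = 3) of the beta chain level in control and 37.6% ± 1.19 in hypoxia, and Lamb1 32.9% ± 1.78 in control and 61.6% ± 1.38 in hypoxia. In hypoxia + rSRGN the beta shares stayed where they were in hypoxia, with Lamb1 at 62.2% ± 0.721. Among alpha chains, Lama2 went from 16.9% ± 1.06 in control to 8.47% ± 0.717 in hypoxia and 10.5% ± 0.627 in hypoxia + rSRGN. Lama4 made up 36.2% ± 3.15, 47.5% ± 0.510 and 51.4% ± 1.90 in the same order of groups, and Lama5 45.7% ± 4.22, 43.5% ± 1.34 and 37.5% ± 1.85. The summed alpha chain level was 49.0 CPM per kb in control, 33.4 in hypoxia and 43.7 in hypoxia + rSRGN.

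**Figure D2:**
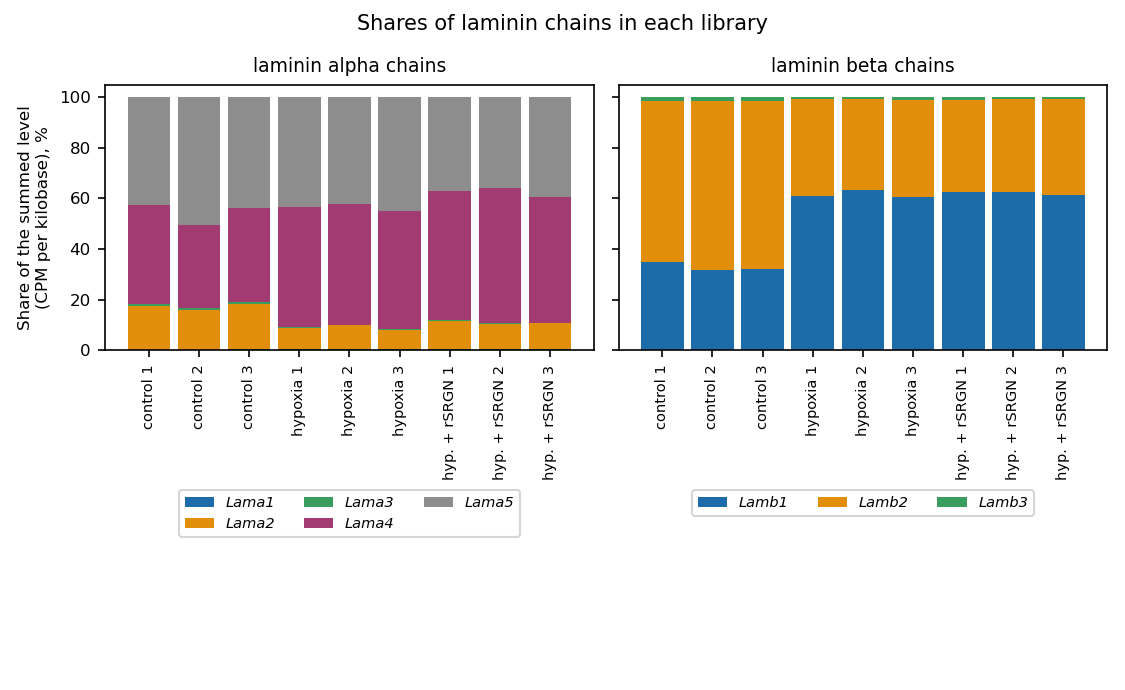
Share (y axis, percent) of each chain in the summed level per kilobase of the laminin alpha and beta chains, one bar per library (x axis), coloured by gene. Lamb1 is the smaller beta share in the 3 control bars and the larger in the others.

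Among the laminin-binding alpha subunits, Itga7, the muscle form, was highest per kb in control (21.6 ± 2.59 CPM per kb). Library values were 151, 182 and 190.3 CPM in control, 120.4, 116 and 122 in hypoxia and 127, 129.8 and 128 in hypoxia + rSRGN. All control libraries exceeded all deprived ones, yet the difference in hypoxia stayed under 1.5-fold (log2 fold change -0.55 ± 0.08 (SE), edgeR adjusted p = 2.48e-06). Without control replicate 1, the lowest of its group, Itga7 passed that limit (log2 fold change -0.65), as it did with a looser filter on low counts (-0.60). The rSRGN libraries lay above the hypoxia ones without a call (log2 fold change 0.11 ± 0.08 (SE), edgeR adjusted p = 0.413). Alternatively spliced forms of Itga7 were not separated in these gene counts.

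Itga6, whose product pairs with those of Itgb1 and Itgb4, had 78.6, 73.0 and 64.2 CPM in control, 42.2, 40.6 and 34.3 in hypoxia and 55.3, 61.7 and 53.5 in hypoxia + rSRGN. The groups were separate, and hypoxia was lowest. Itga6 fell by 1.84-fold in hypoxia (log2 fold change -0.88 ± 0.09 (SE), edgeR adjusted p = 2.58e-08), and its higher level with rSRGN came close to the fold limit (log2 fold change 0.54 ± 0.10 (SE), edgeR adjusted p = 0.000649), passing it without hypoxia replicate 1 (0.60) and without hypoxia + rSRGN replicate 3 (0.59). Itga3, a laminin receptor of epithelia and of other adherent cells, was at 72.2, 82.0 and 78.2 CPM in control, 105, 97.6 and 107 in hypoxia and 125, 123 and 126 in hypoxia + rSRGN. Its groups were also separate, in the order control, hypoxia, hypoxia + rSRGN. Neither step of Itga3 reached 1.5-fold (log2 fold change 0.42 ± 0.07 (SE), edgeR adjusted p = 2.66e-05; log2 fold change 0.27 ± 0.07 (SE), edgeR adjusted p = 0.0127), and the difference between hypoxia + rSRGN and control did (log2 fold change 0.69 ± 0.07 (SE), edgeR adjusted p = 2.15e-08). Per kb, Itga7 stood above Itga3 in control, and Itga3 above Itga7 in hypoxia (18.1 ± 0.898 against 14.8 ± 0.410 CPM per kb).

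The common beta subunit gene Itgb1 was counted at 1338, 1231 and 1389 CPM in control, 1171, 1341 and 1106 in hypoxia and 1569, 1650.5 and 1461 in hypoxia + rSRGN. Control and hypoxia overlapped, and the 3 hypoxia + rSRGN libraries were the highest of the 9. No comparison of Itgb1 was called (log2 fold change -0.13 ± 0.08 (SE), edgeR adjusted p = 0.163 in hypoxia; log2 fold change 0.37 ± 0.08 (SE), edgeR adjusted p = 0.00373 with rSRGN). Itgb1 made up 74.1% ± 1.08 of the beta subunit level per kb in control, 65.9% ± 1.13 in hypoxia and 71.3% ± 2.41 in hypoxia + rSRGN.

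**Figure D3:**
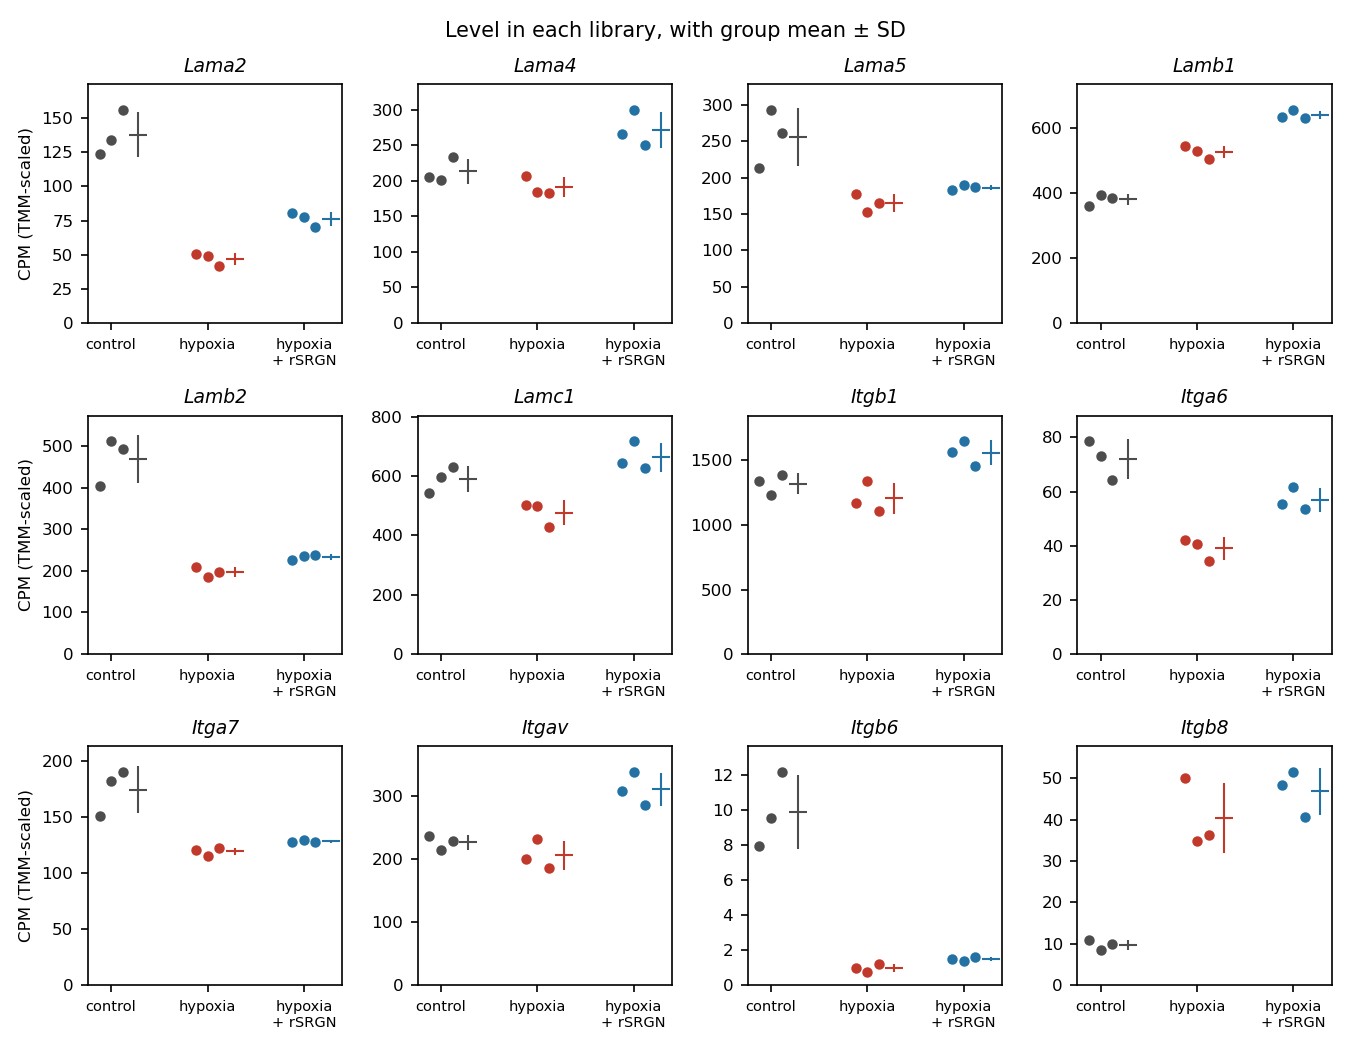
TMM-scaled CPM (y axis, from 0) of 12 laminin and integrin genes in each of the 9 libraries (points, x axis by group), with the group mean ± SD at the right of each group. Lama2 is lowest in hypoxia with hypoxia + rSRGN between the other groups, and Itgb6 and Itgb8 move in opposite directions.

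The beta subunits that pair with the product of Itgav, a receptor of ligands with an RGD motif, differed in direction. Itgb8 (chr12:119158022-119238802, minus strand), which with Itgav binds latent TGF-beta, was at 10.8, 8.44 and 9.90 CPM in control, 50.2, 34.8 and 36.3 in hypoxia and 48.4, 51.6 and 40.7 in hypoxia + rSRGN. All deprived libraries were above all control libraries, and hypoxia replicate 1 was high within its group. Itgb8 rose by 4.17-fold in hypoxia (log2 fold change 2.06 ± 0.14 (SE), edgeR adjusted p = 1.06e-11) and did not differ detectably with rSRGN (log2 fold change 0.21 ± 0.13 (SE), edgeR adjusted p = 0.274). Itgb6 (chr2:60598292-60722643, minus strand), an epithelial subunit that also binds latent TGF-beta, had 7.95, 9.57 and 12.2 CPM in control, 0.967, 0.751 and 1.22 in hypoxia and 1.49, 1.35 and 1.58 in hypoxia + rSRGN. Control libraries held all the high values, and Itgb6 fell by 10.1-fold (log2 fold change -3.33 ± 0.25 (SE), edgeR adjusted p = 6.01e-11). With rSRGN its libraries lay slightly above those of hypoxia, without a call (log2 fold change 0.59 ± 0.30 (SE), edgeR adjusted p = 0.196).

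Itgav itself was at 238, 214 and 229.8 CPM in control, 201, 232 and 186 in hypoxia and 309, 339 and 286 in hypoxia + rSRGN. Control and hypoxia overlapped, and hypoxia + rSRGN was highest in every library (log2 fold change -0.14 ± 0.08 (SE), edgeR adjusted p = 0.140 in hypoxia). Itgav rose with rSRGN by 1.51-fold (log2 fold change 0.59 ± 0.08 (SE), edgeR adjusted p = 0.000120), just past the fold limit. The call ended without hypoxia replicate 1 (0.58), hypoxia replicate 3 (0.52) or hypoxia + rSRGN replicate 2 (0.53), and with library size alone (0.57), while the direction stayed. The vitronectin receptor subunit Itgb5 and the subunit Itgb3, further partners of Itgav, had group means of 362 and 41.0 CPM in control and 494 and 46.5 CPM in hypoxia, with no call in either main comparison (log2 fold changes in hypoxia 0.45 ± 0.08 and 0.18 ± 0.10, with rSRGN -0.02 ± 0.08 and 0.40 ± 0.09, SE).

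Itga8, whose product with that of Itgb1 binds nephronectin and fibronectin, was at 57.7, 50.7 and 66.0 CPM in control, 44.5, 47.8 and 42.0 in hypoxia and 64.0, 78.4 and 63.0 in hypoxia + rSRGN. Hypoxia libraries were the lowest, and control overlapped with hypoxia + rSRGN. In hypoxia Itga8 stayed under the fold limit (log2 fold change -0.37 ± 0.10 (SE), edgeR adjusted p = 0.00225), and with rSRGN it rose by 1.53-fold (log2 fold change 0.61 ± 0.10 (SE), edgeR adjusted p = 0.000375). That call ended without hypoxia replicate 3 (0.57) and without hypoxia + rSRGN replicate 2 (0.50), the library with the highest Itga8. Of the 3 genes called with rSRGN, Itgav shares 5.90% of its exon bases with a gene on the opposite strand, Itga8 5.05% and Lama2 3.80%, and fragments there count for neither gene. Itga5, the fibronectin receptor subunit, was called in no comparison (-0.01 ± 0.08 in hypoxia and 0.19 ± 0.08 with rSRGN, log2 fold changes with SE).

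Itga2b, known from platelets, where its product binds fibrinogen together with that of Itgb3, had 2.61, 3.12 and 2.32 CPM in control, 6.45, 7.05 and 7.47 in hypoxia and 4.23, 6.02 and 5.39 in hypoxia + rSRGN. The 3 hypoxia libraries were highest and the 3 control libraries lowest. It rose in hypoxia (log2 fold change 1.38 ± 0.20 (SE), edgeR adjusted p = 2.46e-06), and with rSRGN the change was not called (log2 fold change -0.42 ± 0.19 (SE), edgeR adjusted p = 0.146). Platelet and megakaryocyte markers (2 of 5 tested, Pf4 the most abundant) summed to 1.80, 2.03 and 1.93 CPM in control, 3.76, 3.70 and 3.76 in hypoxia and 2.68, 2.75 and 2.06 in hypoxia + rSRGN. Pf4 was called higher in hypoxia (log2 fold change 1.00 ± 0.29 (SE), edgeR adjusted p = 0.00411), and Ppbp, Gp1bb and Gp6 had 0 to 3 counts per group. Their part in the level of Itga2b was not tested.

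Itgb4, the partner of Itga6 in epithelial hemidesmosomes, was at 3.73, 3.66 and 3.24 CPM in control, 11.7, 11.8 and 11.6 in hypoxia and 10.1, 10.4 and 11.5 in hypoxia + rSRGN. Each deprived library was above each control library, by 3.29-fold on the fitted scale in hypoxia (log2 fold change 1.72 ± 0.15 (SE), edgeR adjusted p = 5.20e-10). With rSRGN the values lay just below those of hypoxia and were not called (log2 fold change -0.13 ± 0.13 (SE), edgeR adjusted p = 0.553). Per kb, Itgb4 was far below Itga6 in control (0.505 ± 0.0379 against 7.87 ± 0.798 CPM per kb), and in hypoxia the gap was narrower (1.67 ± 0.0193 against 4.27 ± 0.452 CPM per kb). Over the same libraries the 6 epicardial markers rose, as given above, and the part of that shift in Itgb4 was not tested.

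Of the collagen-binding alpha subunits, 1 rose and 1 fell in hypoxia. Itga1, which binds basement membrane collagen, was at 65.3, 62.5 and 76.5 CPM in control, 42.1, 36.5 and 37.1 in hypoxia and 50.3, 53.7 and 46.3 in hypoxia + rSRGN. Control was highest and hypoxia lowest without overlap (log2 fold change -0.82 ± 0.09 (SE), edgeR adjusted p = 6.02e-08 in hypoxia; log2 fold change 0.38 ± 0.09 (SE), edgeR adjusted p = 0.00841 with rSRGN, under the fold limit). Itga10, a collagen receptor of cartilage, had 5.66, 6.50 and 4.06 CPM in control, 10.4, 9.53 and 13.4 in hypoxia and 10.2, 10.7 and 11.04 in hypoxia + rSRGN. All deprived libraries exceeded all control libraries (log2 fold change 1.03 ± 0.17 (SE), edgeR adjusted p = 1.25e-05), and the deprived groups overlapped (log2 fold change -0.06 ± 0.16 (SE), edgeR adjusted p = 0.863). Of the exon bases of Itga10, 33.5% are shared with a gene on the same strand, and fragments there count for neither.

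Itga11, a collagen receptor of fibroblasts, came within rounding of the 1.5-fold limit in hypoxia (log2 fold change 0.58 ± 0.11 (SE), edgeR adjusted p = 4.23e-05), with group means of 20.4 ± 1.94 CPM in control and 30.5 ± 2.58 CPM in hypoxia (SD, n = 3), and it was called without control replicate 3, without hypoxia replicate 1 or 3, and with library size alone as the scaling. Itga2 was called in no comparison and ranged from 2.20 to 4.35 CPM over the 9 libraries.

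Itga9, whose product binds tenascin-C, was at 54.3, 64.3 and 67.9 CPM in control, 22.3, 23.1 and 15.1 in hypoxia and 29.5, 30.0 and 25.9 in hypoxia + rSRGN. Control libraries were highest by a wide margin, and hypoxia replicate 3 was the lowest of all. Itga9 fell by 3.08-fold in hypoxia (log2 fold change -1.62 ± 0.13 (SE), edgeR adjusted p = 1.43e-10), while its higher level with rSRGN (log2 fold change 0.50 ± 0.13 (SE), edgeR adjusted p = 0.0118) passed the fold limit in the absence of hypoxia replicate 2 alone (0.60). The related Itga4, a receptor of Vcam1 and fibronectin, went the other way, from 51.1 ± 3.51 CPM in control to 68.5 ± 0.697 in hypoxia and 94.3 ± 11.9 in hypoxia + rSRGN (SD, n = 3). Its step in each main comparison was under 1.5-fold (log2 fold change 0.42 ± 0.09 (SE), edgeR adjusted p = 0.000173; log2 fold change 0.46 ± 0.09 (SE), edgeR adjusted p = 0.000978), and the difference between hypoxia + rSRGN and control was called (log2 fold change 0.88 ± 0.09 (SE), edgeR adjusted p = 6.07e-09).

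Leukocyte integrins were at low levels, all but Itgb2 averaging under 1 CPM over the 9 libraries, and 7 of 8 were tested. Itgb2 encodes the common beta partner of the Itgal, Itgam, Itgax and Itgad products. It was at 3.68, 3.48 and 5.41 CPM in control, 0.698, 0.520 and 0.348 in hypoxia and 1.73, 0.434 and 1.21 in hypoxia + rSRGN. Every control library was above every deprived one, and the values of hypoxia + rSRGN overlapped those of hypoxia. Itgb2 fell in hypoxia (log2 fold change -2.98 ± 0.41 (SE), edgeR adjusted p = 1.16e-06), as did the alpha subunits Itgal, Itgam, Itgax and Itgad, which all pair with it and had control means of 1.59, 0.662, 0.829 and 1.27 CPM. In hypoxia these means were 0.244, 0.0963, 0.223 and 0.0372 CPM. These alpha genes passed the filter on low counts through their control libraries, so entry to the test favoured a call of lower. With rSRGN no leukocyte integrin was called by edgeR or DESeq2, and 2, Itgal and Itgb2, had an unadjusted p under 0.05. With a library left out, Itgb2 was called higher without hypoxia + rSRGN replicate 2 (log2 fold change 1.47), and Itgal without hypoxia + rSRGN replicate 3.

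Macrophage markers were lower in hypoxia as well. The list of 10, led by Lyz2, summed to 229.7, 241 and 246 CPM in control, 24.7, 26.5 and 27.9 in hypoxia and 35.2, 33.2 and 28.9 in hypoxia + rSRGN, and 8 of the 9 tested were called lower in hypoxia. With rSRGN, 0 of 9 were called by edgeR or DESeq2, and 2 had an unadjusted p under 0.05. C1qa, a defining marker, had 178 counts in control, 1 in hypoxia and 4 in hypoxia + rSRGN, and Adgre1 had 276, 6 and 4. Cd163 had 0 counts in control and in hypoxia. The part of macrophage RNA in the lower Itgb2 was not tested. Neutrophil markers (1 of 7 tested, Mmp8 the most abundant) summed to 0.899, 0.903 and 0.483 CPM in control, 1.29, 0.867 and 1.45 in hypoxia and 1.31, 1.88 and 0.792 in hypoxia + rSRGN, and Ly6g and Retnlg were at 0 throughout. The sum joins opposite changes: Csf3r had 19 counts in control and 0 in hypoxia, and Cxcr2 had 1 and 11. Mmp8 was called in no comparison by edgeR or DESeq2, with an unadjusted p under 0.05 in hypoxia against control alone.

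Itgae and Itgb7, whose products pair in lymphocytes of epithelia and bind E-cadherin, were called higher in hypoxia at very low levels. Both passed the filter on low counts through deprived libraries, so entry to the test favoured a call of higher. Itgb7 had 3 counts in control and 45 in hypoxia over 3 libraries each, a ratio of 18.4 after scaling by library size with an exact 95% interval of 5.89 to 92.4 that covers counting error only. Itgae was at 0.270, 0.361 and 0.242 CPM in control, 0.806, 0.578 and 1.68 in hypoxia and 1.01, 0.578 and 0.317 in hypoxia + rSRGN. Hypoxia replicate 3 was highest, and without it the call of Itgae ended. Lymphocyte markers (1 of 7 tested, Cd79a, the most abundant, called higher in hypoxia) summed to 0.135, 0.361 and 0.387 CPM in control, 1.24, 1.56 and 0.869 in hypoxia and 0.715, 0.867 and 0.634 in hypoxia + rSRGN. Cd3d and Cd3g were at 0 in all 9 libraries, and Cd3e had 3 counts in control and 0 in hypoxia.

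Some of these low counts are uncertain for reasons of annotation. Itgad had 83 counts in control and 2 in hypoxia, 33.9-fold lower after scaling by library size (exact 95% interval 9.10 to 285, counting error only). On the opposite strand its exons overlap Cox6a2, a muscle subunit of cytochrome c oxidase, counted at 213, 237 and 248 CPM in control and 28.3, 22.8 and 18.9 CPM in hypoxia. Fragments in the shared bases count for neither gene. Counting ignored strand, and whether RNA from the Cox6a2 strand reached the other exon bases of Itgad was not tested. Itgam shares 68.7% of its exon bases with a readthrough gene on the same strand that had 0 counts, and fragments in those bases were assigned to neither, so its level is understated.

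Between hypoxia + rSRGN and control, 22 of the 37 genes were called (59.5%), beside 48.8% of all genes tested. By direction, 10 were called higher, beside 24.1% of all genes, and 12 lower, beside 24.7%. Lama2, Lamb2, Lama3 and Lamb3 were among the 12, as were Itga9, Itgb6 and leukocyte genes such as Itgb2 and Itgal. The 10 called higher were Itga2b, Itga10, Itgb7, Itgb4 and Itgb8, which were also called higher in hypoxia, and Itga3, Itga11, Itga4, Lamb1 and Lamc3, which were not. The call of Itga11 ended without control replicate 1, control replicate 2 or hypoxia + rSRGN replicate 1 and with a looser filter, and that of Itgal without control replicate 2, hypoxia + rSRGN replicate 1 or hypoxia + rSRGN replicate 3. That of Itgam ended with DESeq2 and without control replicate 2 or 3 or hypoxia + rSRGN replicate 1 or 3, and that of Itgax without control replicate 2. Itgb3 was called with DESeq2, RLE or library size as the scaling, a stricter filter, and without control replicate 2 or hypoxia + rSRGN replicate 1 or 3. Of the genes called in hypoxia, Itga6, Itga1, Lama5 and Itgae were no longer called against control once rSRGN was present (-0.34 ± 0.09, -0.44 ± 0.09, -0.46 ± 0.09 and 1.09 ± 0.60, log2 fold changes with SE). Itgae was called there without hypoxia + rSRGN replicate 3. A call in one comparison and none in another does not show that they differ. For these 4 genes that is tested by the comparison of hypoxia + rSRGN with hypoxia, where none was called. There Itga6 and Itga1 missed the fold limit alone (log2 fold changes 0.54 and 0.38, edgeR adjusted p = 0.000649 and 0.00841). Lama5 and Itgae had edgeR adjusted p of 0.207 and 0.405. Both deprived groups share the control libraries in these counts.

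In the adhesion machinery that joins integrins to actin, 16 of 29 tested genes were called in hypoxia, 8 higher and 8 lower (55.2%, beside 51.6% of all genes), with a median log2 fold change of 0.16. Fermt3, the kindlin of blood cells, rose the most among genes averaging 1 CPM or more (4.81, 5.24 and 4.30 CPM in control and 59.7, 39.8 and 52.3 in hypoxia; log2 fold change 3.40 ± 0.14 (SE), edgeR adjusted p = 1.52e-15). Itgb2, whose activation in blood cells needs this kindlin, fell in the same libraries, and overlaps of Fermt3 with neighbouring genes were not examined. Zyx, a LIM protein of focal adhesions, and Actn1, an actin crosslinker, followed with 1.45 ± 0.08 and 1.28 ± 0.07 (log2 fold changes with SE). The largest falls were those of Itgb1bp2, the muscle chaperone melusin that binds the Itgb1 tail (133, 139 and 139 CPM in control and 11.9, 8.38 and 8.11 in hypoxia; log2 fold change -3.85 ± 0.12 (SE), edgeR adjusted p = 2.88e-17), Tln2, the talin enriched in striated muscle (-2.50 ± 0.11), and Parvb, a partner of integrin-linked kinase (-1.89 ± 0.09). With rSRGN, 0 of 29 were called by edgeR (3.13% of all genes) or DESeq2. With no fold limit, 10 had an edgeR adjusted p under 0.05, beside 16.6% of all genes.

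Among laminin-binding matrix genes and other laminin receptors, 13 of 18 were called in hypoxia (72.2%, beside 51.6% of all genes), 5 higher (26.4% of all genes) and 8 lower (25.1%), with a median of 0.15. The largest falls were those of Sspn (-3.24 ± 0.10), Dmd (-2.36 ± 0.12, log2 fold changes with SE) and Dag1, which encodes dystroglycan (log2 fold change -1.94 ± 0.08 (SE), edgeR adjusted p = 1.51e-15). Higher were Rpsa, which encodes a ribosomal protein also described as a laminin receptor (2.83-fold), the matrix protein gene Sparc (2.66-fold) and the basement membrane collagen gene Col4a1 (1.83-fold). With rSRGN, 0 of 18 were called by edgeR (3.13% of all genes) and 1 by DESeq2, and the median was 0.20. With no fold limit, 9 had an edgeR adjusted p under 0.05, beside 16.6% of all genes. Dag1 had the largest log2 fold change with rSRGN, 0.57 ± 0.08 (SE), just under the fold limit.

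Of the integrin ligand genes, 16 of 20 were tested, and 9 were called higher (26.4% of all genes) and 1 lower (25.1%) in hypoxia, with 62.5% called in all, beside 51.6%, and a median of 0.63. Ccn1 and Ccn2, matricellular ligands of several integrins, rose by 2.90-fold and 2.43-fold (1.54 ± 0.08 and 1.28 ± 0.09 on the log2 scale), and Postn by 2.20-fold. Spp1, osteopontin, was the gene called lower (log2 fold change -0.75 ± 0.08 (SE), edgeR adjusted p = 4.65e-08). With rSRGN, 1 of 16 was called (6.25%, beside 3.13% of all genes): Thbs1, thrombospondin, at 1863, 1922 and 1842 CPM in control, 2119, 2741 and 1900.0 in hypoxia and 3963, 4401 and 3845 in hypoxia + rSRGN. The 3 hypoxia + rSRGN libraries were the highest (log2 fold change 0.85 ± 0.10 (SE), edgeR adjusted p = 3.85e-05), and control and hypoxia overlapped, with hypoxia replicates 1 and 2 above all control libraries. Fgg had no counts, and Vtn, Madcam1 and Cdh1 too few for a test.

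Promoter sequences from RefSeq (GRCm38.p6), running from 250 bases before to 50 after a transcription start, were at hand for 24 of the 38 genes, in 27 entries. ACGTG, the core of the hypoxia response element, was found on either strand in 1 of the 27 (that of Itga9), against 19.6% of all 32851 promoters. TGANTCA, the AP-1 motif, was in 3 of 27 (Itga3, Itga9 and Itgax; 7.81% of all), and GAANNTTC, a pair of heat shock element units, in 2 of 27 (Itgb5 and Lama2; 7.86% of all). No match says only that these letters are not in the window. Genes without an entry included Itga6, Itga7, Itgad, Itgae, Itgal, Itgb2, Itgb3, Itgb4, Lama1, Lama3, Lama4, Lamc1 and Lamc3.

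Sequences are shown for the called gene with the largest rise in hypoxia, Itgb7 (the gene with the largest fall, Itgad, has no entry), and, chosen after their values were seen, for those with the largest rise and fall at a mean of at least 1 CPM, Itgb8 and Itgb6 (its upstream start), and for Lama2, called in both main comparisons. They lie at chr15:102231886-102232185 on the minus strand, chr12:119238227-119238526 on the minus strand, chr2:60722554-60722853 on the minus strand and chr10:27616893-27617192 on the minus strand, and are written 5′ to 3′ on the strand of the gene. Each runs across a RefSeq start of transcription, which in each case lies inside the bounds of the GENCODE gene. Capitals mark a match to GAANNTTC, present in Lama2 alone, and none of the 3 motifs is in the others.
Itgb7: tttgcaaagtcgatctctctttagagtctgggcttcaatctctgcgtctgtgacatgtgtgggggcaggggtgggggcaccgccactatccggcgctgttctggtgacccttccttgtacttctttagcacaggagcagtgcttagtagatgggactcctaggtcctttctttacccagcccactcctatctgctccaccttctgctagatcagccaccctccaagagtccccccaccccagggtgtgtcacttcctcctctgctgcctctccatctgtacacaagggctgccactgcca
Itgb8: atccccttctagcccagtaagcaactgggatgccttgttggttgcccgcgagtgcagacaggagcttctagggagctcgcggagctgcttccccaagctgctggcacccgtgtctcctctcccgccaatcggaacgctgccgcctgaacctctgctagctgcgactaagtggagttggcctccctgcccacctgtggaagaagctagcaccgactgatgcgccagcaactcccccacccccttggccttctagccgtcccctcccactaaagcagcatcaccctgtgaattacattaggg
Itgb6: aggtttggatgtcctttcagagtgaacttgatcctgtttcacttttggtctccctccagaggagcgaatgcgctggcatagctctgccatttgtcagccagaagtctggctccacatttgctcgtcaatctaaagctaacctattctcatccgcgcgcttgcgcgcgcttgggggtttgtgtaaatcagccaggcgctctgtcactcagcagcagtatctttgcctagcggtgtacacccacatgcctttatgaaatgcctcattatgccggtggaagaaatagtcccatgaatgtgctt
Lama2: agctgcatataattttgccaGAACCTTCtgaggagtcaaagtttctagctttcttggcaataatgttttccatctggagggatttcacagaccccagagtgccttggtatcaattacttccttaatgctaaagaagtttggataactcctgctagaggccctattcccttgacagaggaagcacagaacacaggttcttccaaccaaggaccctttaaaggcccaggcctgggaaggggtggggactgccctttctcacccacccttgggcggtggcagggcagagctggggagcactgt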

How the data were processed

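Poly(A)-enriched RNA of 9 cultures was sequenced on an Illumina NovaSeq instrument. The deposited values are raw counts of fragments per gene: per the authors' notes reads were aligned with HISAT2 (version not given in the sources used here) to mm10, and per the file headers the authors counted them with featureCounts 2.0.1 on GENCODE M25 exons, with no strand option, which leaves out fragments shared by overlapping genes. The gene length column, in bases, came with the counts.

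These counts went into edgeR 4.0.16, with filterByExpr as the filter and TMM as the scaling (quasi-likelihood, one mean per group over all 9 libraries) in R 4.3.3. Called means a Benjamini-Hochberg adjusted p under 0.05 over all genes tested and a fold of at least 1.5. The scripts were tested on simulated data. Alternatives were DESeq2 1.42.0, other scaling, filters and limits, fits on the compared groups alone, a replicate block, and each library left out.

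Values per library are given for members called in either main comparison at a mean of at least 1 CPM and for Itgb1, Itga7, Itga6, Itga3, Lama2, Lama4, Lama5, Lamb1, Lamb2 and Lamc1, and for each list the 3 largest rises and falls at a mean of at least 1 CPM are named. Other genes named were chosen after their values were seen. The members and lists were chosen with earlier results of these data known. Exact intervals cover counting error only. Protein sequences were not used here. Some genes of the lists are not reported here.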

Additional observations from a re-analysis of the deposited data

How the results depend on the processing

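The number of integrin and laminin genes called in hypoxia against control was 21, and 20 to 22 with a library left out. By adjusted p with no fold limit it was 29, beside 70.9% of all genes tested. With a filter of at least 10 counts in every library it was 13 of 29 members tested, beside 49.7% of all genes. The 8 genes lost were no longer among those tested. In hypoxia + rSRGN against control it was 22, and 19 to 22 with a library left out. It was 33 with no fold limit, beside 68.6% of all genes, and 16 with that filter, beside 46.8%. The 3 genes called in hypoxia + rSRGN against hypoxia became 5 by unadjusted p with the fold limit, beside 5.36% of all genes. By adjusted p with no fold limit they became 14, beside 16.6%. With a library left out the count was 1 to 5. It was lowest without hypoxia replicate 3, beside 1.89%, and highest without hypoxia + rSRGN replicate 3, beside 3.46%. The settings were DESeq2, RLE or plain library size as the scaling, looser and stricter filters, other limits on p and fold, fits on the compared groups alone and the replicate block.

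With replicate number as a block the counts were 21, 3 and 22, and no call of a member changed. Same-numbered libraries did not deviate together (correlations -0.05 to 0.05, against -0.08 to 0.07 for other pairs), so no pairing by number was detected. With 3 libraries per group, these correlations cannot show whether same-numbered cultures shared an isolation.

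Of 66 fold changes of the 22 members given per library, 38 kept direction and call in each setting. The others changed call or direction in at least 1. A change of sign came without hypoxia replicate 3, in hypoxia + rSRGN against hypoxia and without a call: Itga10 went to 0.10 (lowest with a library left out -0.15, without hypoxia replicate 2). The cause was not tested. Of the lists with rSRGN against hypoxia, adhesion machinery went from 0 to 10 by adjusted p with no fold limit, beside 16.6% of all genes. It went to 3 without hypoxia replicate 1, beside 4%, and to 1 without hypoxia + rSRGN replicate 1, beside 2.48%. With no fold limit, the laminin network went from 0 to 9 and integrin ligands from 1 to 8, beside the same 16.6%. Otherwise they went to at most 1 and at most 3, beside 1.81% to 5.36% of all genes in those settings. In hypoxia, adhesion machinery went from 16 to 25 with no fold limit, beside 70.9% of all genes. Members under 1 CPM rest on few counts, and their fold changes have wide errors.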
